A study of Rattus norvegicus with 18 samples.

Results

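The SLC25 genes encode carriers, most of them in the mitochondrial inner membrane, and 38 of them were followed here among the 13188 genes measured in rat fibroblasts with and without MYC. The members were all symbols made of Slc25a and a number, apart from Slc25a20, and every one of the 38 stayed in the tests because no filter on low values was applied. RNA-seq was performed on HO15.19 cells, a line derived from Rat1 fibroblasts and labelled myc-/-, grown in 10% serum. There were 6 groups of 3 libraries. Sed was the myc-/- line without human MYC and without transfection, and Sed siCtrl was the same line 48 h after transfection with 40 nM of a control siRNA. SedMYC was the line made to express human MYC stably by viral infection, without transfection. SedMYC siCtrl, SedMYC siAHR-2 and SedMYC siAHR-5 were MYC-expressing cells 48 h after transfection with 40 nM of the control siRNA or of either siRNA against AHR, the aryl hydrocarbon receptor. All groups carry the myc-/- label, and human MYC came from a viral vector rather than from its own promoter. Nothing in the labels says that the libraries of a group came from separate cultures, so the p-values measure only the spread between libraries, which may be technical.

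Members of this family share a fold of transmembrane helices and exchange solutes between the cytosol and the mitochondrial matrix. They supply the matrix with ADP and phosphate for ATP synthesis, with cofactors such as coenzyme A and folate, and with amino acids, nucleotides and iron. MYC is known for raising mitochondrial mass and biosynthetic metabolism in proliferating cells, and many of the solutes that these pathways use must cross the inner membrane through a carrier of this family. AHR is a ligand-activated transcription factor.

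The values are the deposited log2 expression values, and a log2 fold change (log2FC) is a difference of group means on that scale. The libraries lay on different scales in a 6-library set (Sed siCtrl and SedMYC) and a 12-library set (the other groups). The leading principal component, with 74.7% of the variance, separated these sets. MYC was therefore compared within each set, as SedMYC minus Sed siCtrl in the 6-library set and as SedMYC siCtrl minus Sed in the 12-library set. In both, the transfection label changed together with MYC, in opposite directions, so MYC and transfection cannot be told apart in either. Levels are not compared between genes, because the values are not per length.

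The labels were checked first. Ahr lay at 13.22 to 13.34 in SedMYC siCtrl, at 11.97 to 12.03 in SedMYC siAHR-2 and at 11.76 to 11.95 in SedMYC siAHR-5, a log2FC of -1.29 (SE 0.0364) and -1.39 (SE 0.0612). Rat Myc gave a signal in every library of the myc-/- line and was lower in the MYC-expressing groups, with a log2FC of -1.26 in the 6-library set and -2.68 in the 12-library set. The table gives 1 value for the whole gene and none for the disrupted part alone, so it does not check the myc-/- label. Human MYC has no row of its own in the table, so its level was not measured here. All 9 fibroblast markers examined were in the table, with Col1a1 at 14.91 to 21.07, although Col1a2 reached only 3.64 to 4.13. The log2 of the summed fibroblast markers was lower with MYC, at 19.90 to 19.99 against 20.82 to 20.83 in the 6-library set and at 20.23 to 20.25 against 21.95 to 22.18 in the 12-library set. All 9 fibroblast markers were lower with MYC in the 12-library set, with log2FC from -5.95 (Col1a1) to -0.08 (Col3a1). In the 6-library set 5 were lower, from -1.76 (Fn1) to -0.13 (Col1a2), and 4 higher, from 0.13 (Vim) to 1.30 (Col3a1). The epithelial list, 3 of 4 genes in the table, was higher with MYC through Krt8 (log2FC 1.70 and 1.17), while Epcam stayed at 1.22 to 2.42. Endothelial sums lay at 7.66 to 8.02 in all groups. In the 6-library set they were lower with MYC, at 7.66 to 7.67 against 7.80 to 7.93. In the 12-library set they overlapped, at 7.68 to 7.75 with MYC against 7.70 to 7.99. The log2FC of Cdh5 was -0.54 and -0.04, of Kdr -0.03 and -0.16, and of Pecam1 0.20 and -0.10. Haematopoietic sums were lower with MYC in both sets, at 8.36 to 8.50 against 9.61 to 9.72 and at 7.93 to 8.11 against 8.47 to 8.56, with Ptprc at 2.84 to 4.65 throughout. In that list the log2FC of Cd3e was -2.09 and -1.13, of Ptprc -0.15 and -0.04, and of Cd68 0.35 and 0.27. The part of these marker levels in the changes of carrier genes was not tested.

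MYC was accompanied by changes in both directions within the family. In bulk RNA, fewer cells of a type and less RNA per cell cannot be told apart. In the 6-library set, 8 of 38 members passed the cutoffs used throughout, a log2FC of at least 0.585 in size (1.5-fold) and an adjusted p of at most 0.01 in limma's moderated test with Benjamini-Hochberg adjustment over all genes. Of all genes, 26.8% passed, 12.5% higher and 14.3% lower. Among the members 7 rose, including Slc25a17, Slc25a23, Slc25a26, Slc25a27, Slc25a38 and Slc25a42, and 1 fell, Slc25a25. The median log2FC of the 38 members was 0.13, beside -0.0038 over all genes, and 23 members lay above 0, as did 48.8% of all genes. This median was 0.21 under quantile normalization, 0.089 after median centring and 0.20 when only genes averaging 5 or more were kept.

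In the 12-library set, 8 of 38 members also passed, where 25.5% of all genes did, 10.8% higher and 14.7% lower. Of the members, 6 rose, including Slc25a23, Slc25a27, Slc25a32, Slc25a33 and Slc25a38, and 2 fell, Slc25a25 and Slc25a29. The split of 6 and 2 became 6 and 1 under quantile normalization, where Slc25a29 had a log2FC of -0.55. The median log2FC of members was -0.0016, beside -0.00014 over all genes, and 19 lay above 0, as did 48% of all genes. With 1 library left out, the member median lay between -0.015 and -0.0044. It was 0.11 under quantile normalization and 0.041 after centring each library on its median, so it had no stable sign. The median over all genes was then 0.021 and 0.043.

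The sets share no library. Of the 38 members, 4 rose in both (including Slc25a23, Slc25a27 and Slc25a38), 1 fell in both (Slc25a25), 3 passed only in the 6-library set, 3 only in the 12-library set and none in opposite directions. Of all 13188 genes, 906 rose in both, 1175 fell in both and 45 passed in opposite directions. A further 1411 passed only in the 6-library set and 1235 only in the 12-library set. The 5 shared members were 62.5% of each list, while over all genes the calls shared with their direction were 58.8% of the 6-library set and 61.9% of the 12-library set. The sign of the log2FC was the same in both sets for 24 members (63.2%), beside 76.4% of all genes.

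**Figure D1:**
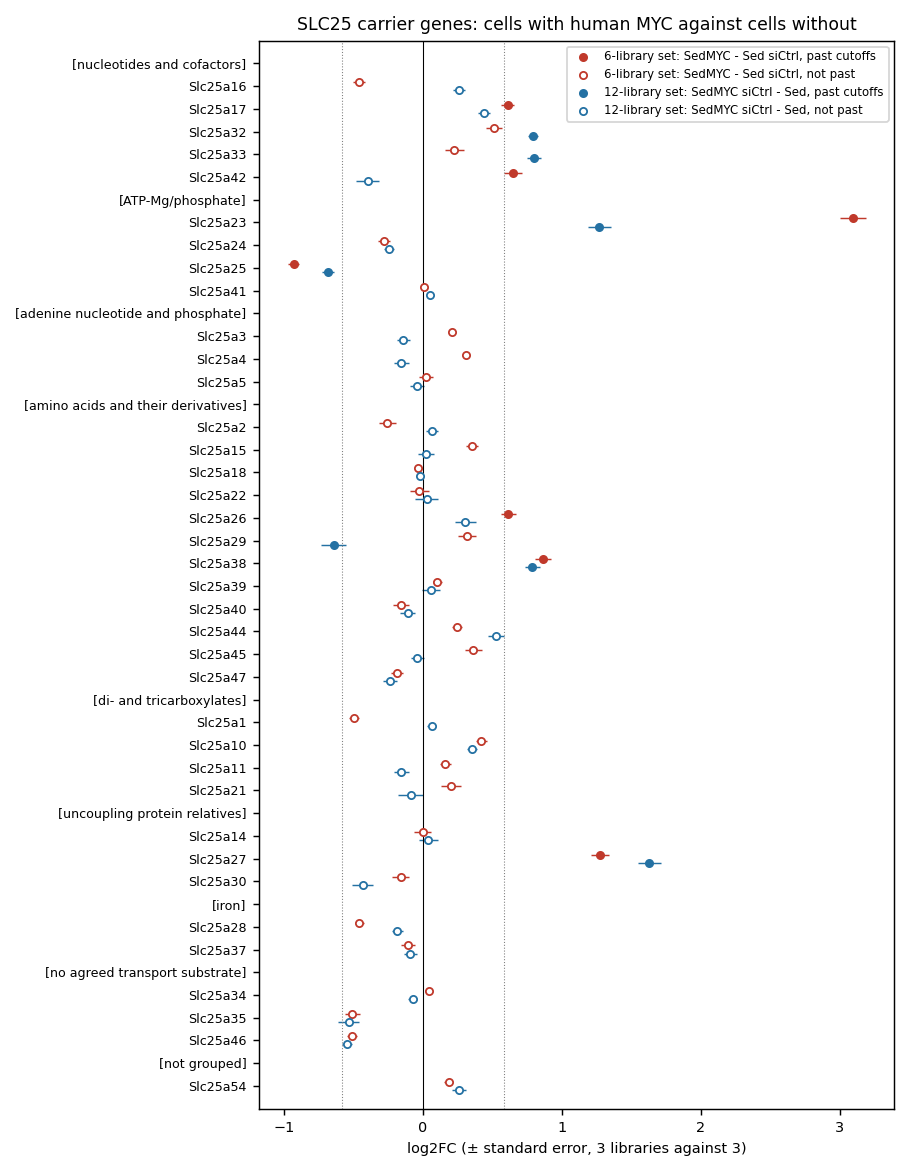
Log2FC with MYC of 37 SLC25 genes, by role group, in the 6-library set (SedMYC minus Sed siCtrl) and in the 12-library set (SedMYC siCtrl minus Sed); each point is the difference of means of 3 and 3 libraries with its standard error, filled where it passed the cutoffs, and dotted lines mark a fold of 1.5. Slc25a23 has the highest point in the 6-library set, at 3.09, and Slc25a25 lies below 0 in both sets.

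Of the 6 carriers of nucleotides and cofactors, 3 rose in each set, where 12.5% and 10.8% of all genes did. Slc25a17 and Slc25a42 were among those of the 6-library set, and Slc25a32 and Slc25a33 among those of the 12-library set. Under an FDR of 0.05 alone, 5 of the 6 were higher and 1 was lower in each set, beside 37.3% higher and 39% lower of all genes in the 6-library set and 31.6% and 33.1% in the 12-library set. No test compared the role groups. Slc25a32 carries folate and FAD into mitochondria, and Slc25a33 carries pyrimidine nucleotides. Slc25a32 measured 11.50, 11.43 and 11.41 in Sed and 12.26, 12.22 and 12.24 in SedMYC siCtrl, with no overlap and a log2FC of 0.79 (SE 0.0370, limma adjusted p = 1.07e-05, n = 3 and 3). The 6-library set had 10.26, 10.36 and 10.30 without and 10.71, 10.87 and 10.88 with MYC, a log2FC of 0.51 (adjusted p = 6.97e-06) that is under the fold cutoff. Slc25a33 was at 10.78, 10.92 and 10.88 in Sed and at 11.66, 11.63 and 11.70 in SedMYC siCtrl, a log2FC of 0.80 (SE 0.0486, limma adjusted p = 3.02e-05). Its groups overlapped in the 6-library set, with 10.12, 9.94 and 9.94 in Sed siCtrl and 10.11, 10.29 and 10.28 in SedMYC, where the log2FC of 0.23 (adjusted p = 0.0107) did not pass.

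The product of Slc25a17 sits in the peroxisomal membrane, where it carries coenzyme A and related cofactors. It measured 11.66, 11.72 and 11.67 in Sed siCtrl and 12.39, 12.28 and 12.21 in SedMYC, a log2FC of 0.61 (SE 0.0466, limma adjusted p = 2.85e-07). This value is just past the fold cutoff, and it was 0.56 without SedMYC replicate 1 and 0.57 after median centring. The log2FC of 0.44 (adjusted p = 0.000246) in the 12-library set did not pass.

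The mitochondrial coenzyme A carrier Slc25a42 and its relative Slc25a16 had opposite signs in the sets. Slc25a42 measured 10.73, 10.80 and 10.83 in Sed siCtrl and 11.56, 11.46 and 11.28 in SedMYC, so that it rose with a log2FC of 0.65 (SE 0.0649, limma adjusted p = 2.91e-06). In Sed it measured 11.94, 12.05 and 11.82 and in SedMYC siCtrl 11.48, 11.66 and 11.46, a log2FC of -0.40 (adjusted p = 0.00597) that did not pass the fold cutoff. The groups did not overlap in either set, yet the order was reversed. Slc25a16, named after its values were seen, showed the other order, with a log2FC of -0.46 (adjusted p = 9.71e-07) in the 6-library set and 0.26 (adjusted p = 0.00288) in the 12-library set, neither past the cutoffs.

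The carriers that exchange ATP-Mg for phosphate, and so set the adenine nucleotide content of the matrix, split by member. As grouped here, they are the calcium-regulated Slc25a23, Slc25a24 and Slc25a25 and their relative Slc25a41, which lacks the calcium-binding domain. Of the 4, 1 rose and 1 fell in each set, where 12.5% of all genes rose and 14.3% fell in the 6-library set and 10.8% rose and 14.7% fell in the 12-library set. Slc25a23 measured 5.55, 5.52 and 5.53 in Sed siCtrl and 8.84, 8.63 and 8.41 in SedMYC. It measured 6.71, 6.73 and 6.74 in Sed and 8.07, 8.10 and 7.82 in SedMYC siCtrl. All 6 MYC libraries lay above the libraries without MYC of their set. Slc25a23 had the largest log2FC of the 38 in the 6-library set, 3.09 (SE 0.0924, limma adjusted p = 1.03e-10), a fold of 8.54. The 12-library set gave a log2FC of 1.27 (SE 0.0838, adjusted p = 4.22e-05), a fold of 2.41.

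Slc25a25 was the member that fell in both sets. It measured 11.26, 11.24 and 11.26 in Sed siCtrl against 10.33, 10.30 and 10.33 in SedMYC, and 11.71, 11.81 and 11.70 in Sed against 11.09, 11.02 and 11.05 in SedMYC siCtrl. In neither set did the groups overlap. The log2FC was -0.93 (SE 0.0407, limma adjusted p = 2.34e-09) and -0.68 (SE 0.0444, adjusted p = 3.93e-05). Slc25a24, of the same group, had values of -0.28 and -0.24 that did not pass. Slc25a41 lay at 0.32 to 0.33 in the 6-library set and at 2.12 to 2.19 in the 12-library set. These values are too low to tell no change from no detection. Slc25a41 is the protein-coding neighbour of Slc25a23 in the GRCr8 gene order.

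**Figure D2:**
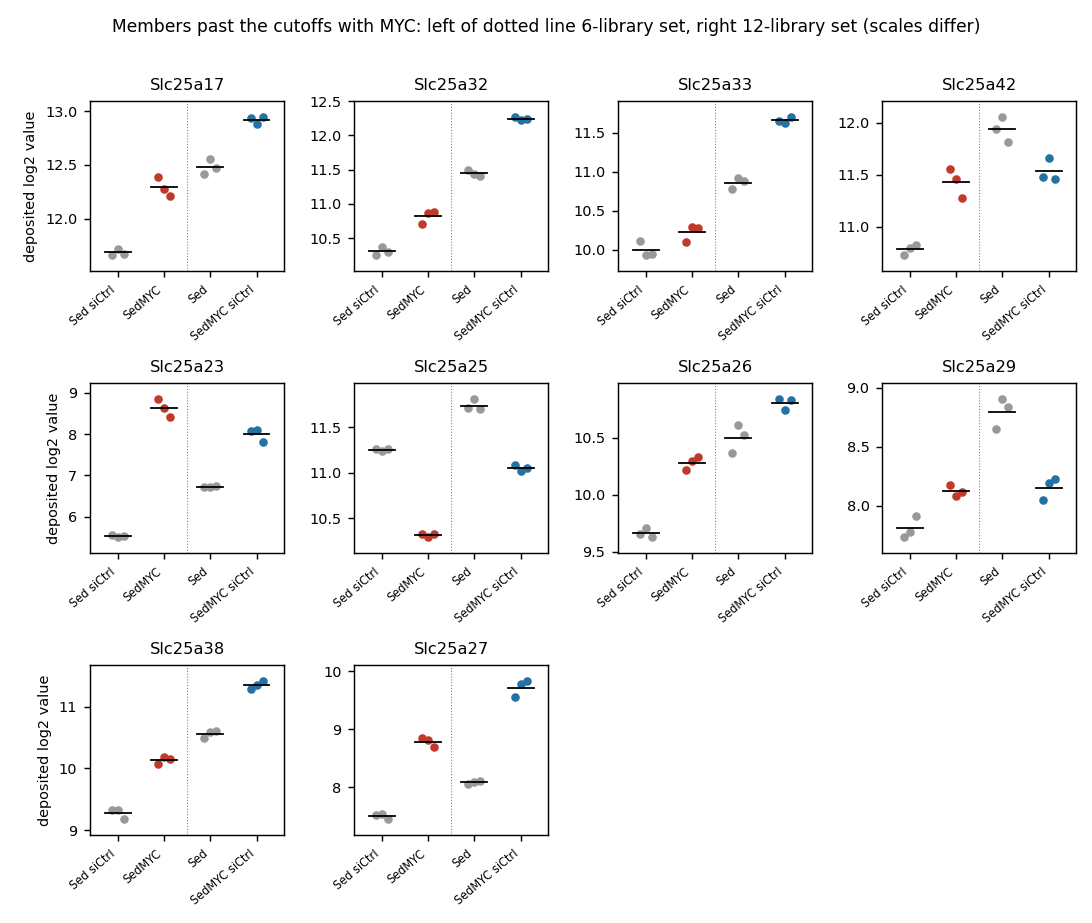
Deposited log2 value of each library for 10 of the members that passed the cutoffs with MYC, with 3 points and a mean line per group; groups without MYC and with MYC stand side by side within each set, and the sets lie on different scales. Slc25a23, Slc25a27 and Slc25a38 are higher and Slc25a25 is lower with MYC in both sets, whereas Slc25a29 and Slc25a42 change order between the sets.

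Among the 12 carriers of amino acids and their derivatives, 2 rose and 0 fell in the 6-library set, beside 12.5% and 14.3% of all genes, and 1 rose and 1 fell in the 12-library set, beside 10.8% and 14.7%. Slc25a38, which imports glycine for the first step of haem synthesis, measured 9.32, 9.32 and 9.18 in Sed siCtrl and 10.07, 10.19 and 10.15 in SedMYC. It measured 10.50, 10.59 and 10.61 in Sed and 11.29, 11.35 and 11.41 in SedMYC siCtrl. No library without MYC reached a MYC library of its set, and the log2FC was 0.87 (SE 0.0596, limma adjusted p = 1.13e-07) and 0.79 (SE 0.0520, adjusted p = 4.23e-05).

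Slc25a26, the carrier of S-adenosylmethionine, the methyl donor, measured 9.66, 9.71 and 9.63 in Sed siCtrl and 10.22, 10.30 and 10.33 in SedMYC. Its log2FC of 0.62 (SE 0.0526, limma adjusted p = 7.41e-07) lay near the fold cutoff and was 0.57 under quantile normalization and also after median centring. The value of 0.31 (adjusted p = 0.0122) in the 12-library set did not pass. Slc25a29, a carrier of basic amino acids, measured 8.65, 8.90 and 8.84 in Sed and 8.04, 8.19 and 8.23 in SedMYC siCtrl, and it fell with a log2FC of -0.64 (SE 0.0890, adjusted p = 0.00109). In the 6-library set the MYC libraries were the higher ones, at 8.18, 8.08 and 8.12 against 7.74, 7.78 and 7.91, with a log2FC of 0.32 (adjusted p = 0.000982) that did not pass.

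The other carriers of this group stayed within the fold cutoff. Slc25a44, a carrier of branched-chain amino acids, had a log2FC of 0.24 (adjusted p = 9.35e-05) in the 6-library set and 0.52 (adjusted p = 0.000416) in the 12-library set. Slc25a15, the ornithine carrier of the urea cycle, had 0.35 (adjusted p = 1.9e-05) in the 6-library set and lay at 11.32 to 11.50 in Sed and 11.44 to 11.46 in SedMYC siCtrl.

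Of the 3 uncoupling protein relatives, 1 rose in each set, where 12.5% and 10.8% of all genes did. Slc25a27, known as uncoupling protein 4 and best known from brain, measured 7.53, 7.54 and 7.46 in Sed siCtrl and 8.84, 8.81 and 8.69 in SedMYC, and 8.06, 8.09 and 8.11 in Sed and 9.55, 9.78 and 9.82 in SedMYC siCtrl. The groups were fully separate. Its log2FC was 1.27 (SE 0.0635, limma adjusted p = 7.15e-09) and 1.63 (SE 0.0839, adjusted p = 1.52e-05), a fold of 2.42 and 3.10.

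The 3 carriers that serve ATP synthesis itself did not pass in either set, as most genes did not (26.8% and 25.5% of all genes passed). Slc25a3 imports phosphate, and Slc25a4 and Slc25a5 exchange ADP for ATP. Slc25a3 measured 15.91, 15.89 and 15.91 in Sed siCtrl and 16.11, 16.11 and 16.12 in SedMYC, a log2FC of 0.21 (SE 0.0253, adjusted p = 1.4e-05). In the 12-library set the value was -0.14 (SE 0.0473, adjusted p = 0.0387), and it turned to 0.093 under quantile normalization. Slc25a4 had a log2FC of 0.31 (95% CI 0.25 to 0.36) in the 6-library set and -0.16 (-0.29 to -0.02) in the 12-library set. Slc25a5 had 0.02 (-0.09 to 0.13) and -0.04 (-0.17 to 0.08). These intervals stay below a fold of 1.5 in size. With 1 library left out, the 12-library values lay between -0.17 and -0.10 for Slc25a3 and between -0.19 and -0.10 for Slc25a4. The highest limma adjusted p was then 0.116 for Slc25a3 and 0.139 for Slc25a4.

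None of the 4 di- and tricarboxylate carriers, of the 2 iron carriers or of the 3 members without an agreed substrate passed in either MYC comparison, where 26.8% and 25.5% of all genes did, shares that leave 0 unremarkable in groups this small. The citrate carrier Slc25a1, which exports citrate for fatty acid synthesis, had a log2FC of -0.50 (SE 0.0383, adjusted p = 3.02e-07) in the 6-library set. It lay at 13.97 to 14.06 in Sed and at 14.06 to 14.09 in SedMYC siCtrl. Just short of the fold cutoff, and named after their values were seen, were Slc25a46, an outer membrane protein of mitochondrial dynamics, with -0.51 and -0.55, and Slc25a35, with -0.51 and -0.53. All 4 adjusted p were under 0.01, so the fold cutoff alone kept them out. Slc25a54, named after its values were seen, was placed in no role group. Its log2FC of 0.19 in the 6-library set and 0.26 in the 12-library set did not pass the cutoffs.

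Without the fold cutoff and with an FDR below 0.05, the counts were far larger but so was the background. The 6-library set then had 32 of 38 members past the test, 20 higher and 12 lower, where 76.2% of all genes passed, 37.3% higher and 39% lower. Slc25a18, among the 12 lower, had only very low values there, from 1.16 to 1.23. The 12-library set had 24, 12 higher and 12 lower, where 64.7% of all genes passed, 31.6% higher and 33.1% lower. Full separation of the groups was found for 30 of 38 members in the 6-library set (78.8% of all genes) and for 26 in the 12-library set (70.5%).

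The difference between both MYC effects (12-library set minus 6-library set), tested in one limma fit of these 12 libraries, passed for 4 of 38 members, where 16.5% of all genes passed, 6.79% higher and 9.67% lower. An FDR of 0.05 alone was met by 22 members, 10 higher and 12 lower, beside 54.9% of all genes, 24.8% higher and 30.1% lower. Slc25a23 differed by -1.82 (SE 0.133, adjusted p = 2.57e-08), Slc25a42 by -1.05 (SE 0.108, adjusted p = 1.14e-06) and Slc25a29 by -0.96 (SE 0.110, adjusted p = 3.47e-06). Slc25a16 differed by 0.72 (SE 0.0643, adjusted p = 2.3e-07). The effect was thus smaller in the 12-library set for Slc25a23, whose direction was the same in both, and of opposite sign in the sets for the other 3. The split of 1 higher and 3 lower became 2 and 3 under quantile normalization and 3 and 3 after median centring, because Slc25a33 (0.57) and Slc25a1 (0.56) lie at the cutoff. The direction of the transfection change and the scale differ between the sets together, and these cannot be told apart.

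**Figure D3:**
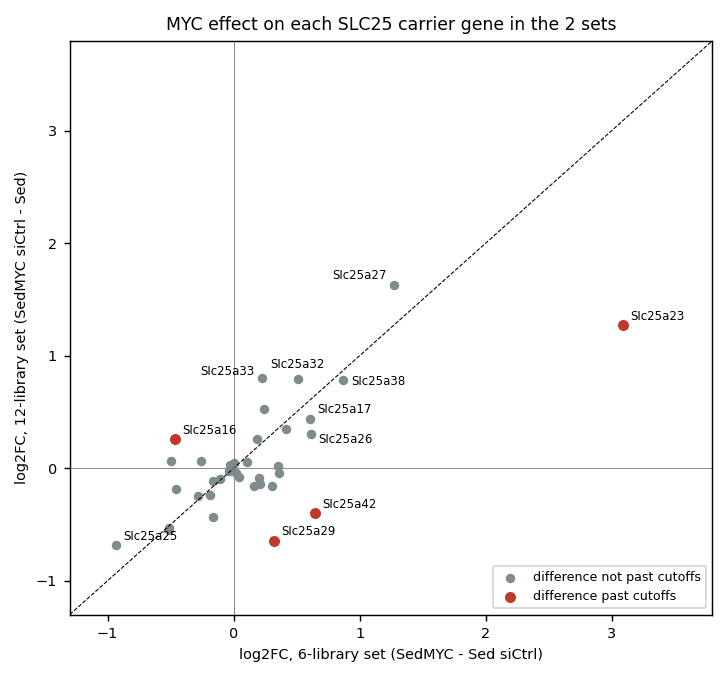
Log2FC with MYC of 37 members in the 6-library set (horizontal) against the 12-library set (vertical), each from 3 and 3 libraries; the dashed line marks equal values, and red points are the 4 members whose difference between the sets passed the cutoffs. Slc25a23 lies far below the line, Slc25a29 and Slc25a42 lie below 0 on the vertical axis only, and Slc25a16 lies above 0 on the vertical axis only.

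Promoter sequence from RefSeq in GRCr8 was set beside these values, with 250 bases before and 50 after the start. All 38 members matched a gene symbol there, and 32 of 38 were matched by symbol to a promoter. Slc25a33 is shown because it is the only member that rose whose window holds CACGTG, the E-box that MYC and MAX bind; Slc25a23 and Slc25a25 are shown as the members with the largest rise and the largest fall in the 6-library set. Capitals mark CACGTG and, further upstream in Slc25a33, the complement of TNGCGTG, a form of the core that AHR and ARNT bind. The windows are chr5:165502924-165503223, chr9:1985316-1985615 and chr3:36116532-36116831, all on the minus strand and printed 5' to 3'.
Slc25a33: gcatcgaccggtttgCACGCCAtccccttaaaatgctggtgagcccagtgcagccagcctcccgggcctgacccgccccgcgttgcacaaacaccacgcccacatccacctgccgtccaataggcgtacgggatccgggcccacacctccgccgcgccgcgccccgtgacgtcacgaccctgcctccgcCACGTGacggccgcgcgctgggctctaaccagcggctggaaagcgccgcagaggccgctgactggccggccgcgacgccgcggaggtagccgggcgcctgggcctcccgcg
Slc25a23: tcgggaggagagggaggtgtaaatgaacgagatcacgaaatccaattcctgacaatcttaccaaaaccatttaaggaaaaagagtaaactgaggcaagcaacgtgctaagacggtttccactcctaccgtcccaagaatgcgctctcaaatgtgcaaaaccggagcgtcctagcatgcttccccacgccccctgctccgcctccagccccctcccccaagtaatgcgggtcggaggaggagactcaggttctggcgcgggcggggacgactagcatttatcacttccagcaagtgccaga
Slc25a25: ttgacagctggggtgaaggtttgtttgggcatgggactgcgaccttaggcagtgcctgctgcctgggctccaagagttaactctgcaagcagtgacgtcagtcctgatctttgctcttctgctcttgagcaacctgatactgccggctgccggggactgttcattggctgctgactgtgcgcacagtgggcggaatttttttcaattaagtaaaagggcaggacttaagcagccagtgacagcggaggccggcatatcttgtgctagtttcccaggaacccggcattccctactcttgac

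CACGTG starts 61 bases before the start of Slc25a33 and 16 before that of Slc25a2, so that 2 of 32 member promoters (6.25%) hold it, beside 6.65% of all 27457 promoters of this length. Of the 9 members that rose with MYC in either set, 6 had a promoter in the table and 1 held CACGTG, of the 2 that fell both had a promoter and 0 held it, and of the 27 others 24 had a promoter and 1 held it. TNGCGTG, searched on both strands, was in 4 of 32 member promoters (12.5%), those of Slc25a1, Slc25a15, Slc25a33 and Slc25a40, beside 5.12% of all promoters. The motifs share no position in Slc25a33. These matches describe letters in a window only.

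The siRNAs against AHR were each compared with SedMYC siCtrl, which they share with one another and with the MYC comparison in the 12-library set. With siAHR-2, 0 of 38 members passed the cutoffs in limma's test, where 0.47% of all genes passed, 0.159% higher and 0.311% lower. An unadjusted p under 0.05 was found for 23 members, where 40.4% of all genes had one. Under an FDR of 0.05 alone, 19 members passed, 9 higher and 10 lower, beside 29.3% of all genes, 13.7% higher and 15.5% lower. The member median was 0.08, beside 2.2e-06 over all genes, and log2FC of members ran from -0.55 to 0.35.

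With siAHR-5, 1 of 38 members passed, Slc25a23, where 2.32% of all genes did, 1.47% higher and 0.849% lower. Under an FDR of 0.05 alone, 21 members passed, 11 higher and 10 lower, beside 39.2% of all genes, 21.1% higher and 18.1% lower. The log2FC of members ran from -0.51 to 0.81, with a median of -0.0051, beside 0.013 over all genes. This member median lay between -0.019 and 0.0078 with 1 library left out. It was -0.052 under quantile normalization and -0.065 after median centring, where the median over all genes was -0.0024 and -0.046. The groups did not overlap for 23 members with siAHR-2 (43.3% of all genes) and for 23 with siAHR-5 (50.5%).

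**Figure D4:**
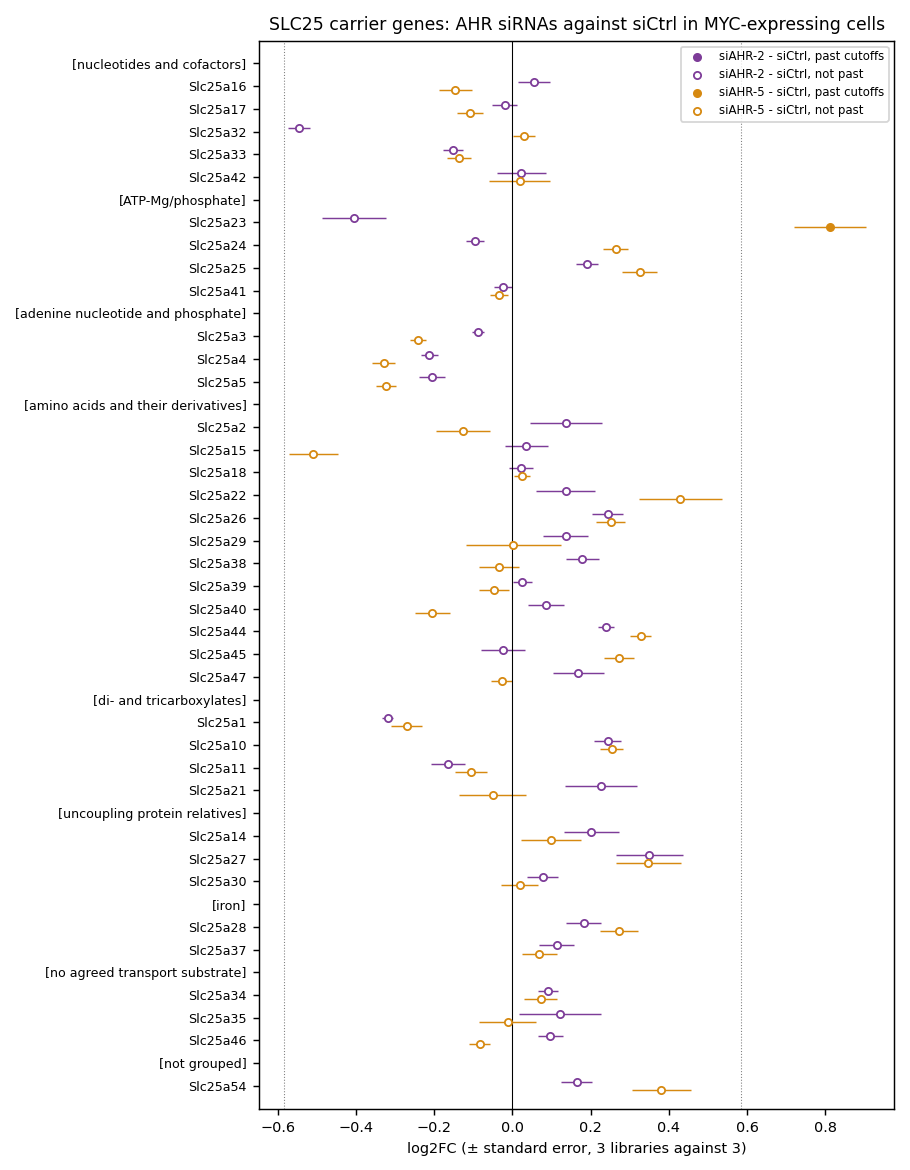
Log2FC of 37 members with siAHR-2 and with siAHR-5, each against the same 3 SedMYC siCtrl libraries, by role group, as differences of means of 3 and 3 libraries with standard errors, filled where they passed the cutoffs, and dotted lines at a fold of 1.5. Slc25a23 lies at -0.40 with siAHR-2 and at 0.81 with siAHR-5, and is the 1 point past the cutoffs.

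Slc25a23 lay on opposite sides of the control with the siRNAs. It measured 8.07, 8.10 and 7.82 in SedMYC siCtrl, 7.59, 7.61 and 7.57 in SedMYC siAHR-2 and 8.76, 8.90 and 8.76 in SedMYC siAHR-5, so the 3 groups did not overlap. The log2FC with siAHR-5 was 0.81 (SE 0.0914, limma adjusted p = 0.00177), a fold of 1.76. With siAHR-2 it was -0.40 (SE 0.0830, adjusted p = 0.0186), which did not pass. With 1 library left out, the siAHR-2 value lay between -0.49 and -0.35, with a limma adjusted p of up to 0.064. The siAHR-5 value then lay between 0.72 and 0.86, with a limma adjusted p of up to 0.0098. The direct difference, siAHR-5 minus siAHR-2, was 1.22 (SE 0.0511, adjusted p = 8.69e-05), a fold of 2.32. Ahr fell with both siRNAs.

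The siRNAs also differed in Slc25a32, which measured 12.26, 12.22 and 12.24 in SedMYC siCtrl, 11.71, 11.72 and 11.65 with siAHR-2 and 12.30, 12.23 and 12.27 with siAHR-5. The log2FC was -0.55 (SE 0.0277, adjusted p = 0.000449) with siAHR-2, under the fold cutoff, and 0.03 (95% CI -0.04 to 0.10) with siAHR-5. The direct difference of 0.58 (SE 0.0326, adjusted p = 0.000207) lies at the fold cutoff and passes it when SedMYC siAHR-2 replicate 2 or SedMYC siAHR-5 replicate 2 is left out.

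Slc25a15 measured 11.46, 11.44 and 11.44 in SedMYC siCtrl, 11.39, 11.60 and 11.46 with siAHR-2 and 11.04, 10.81 and 10.97 with siAHR-5. The siAHR-5 libraries lay below all others, with a log2FC of -0.51 (SE 0.0622, adjusted p = 0.0023) that missed the fold cutoff. The direct difference was -0.54 (SE 0.0803, adjusted p = 0.00407).

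The direct difference between the siRNAs passed for 1 of 38 members, Slc25a23, where 2.18% of all genes passed, 1.33% higher and 0.849% lower. An FDR of 0.05 alone was met by 14 members, 5 higher and 9 lower with siAHR-5, beside 39.1% of all genes, 22.1% higher and 17% lower. Among them, and named after its values were seen, Slc25a24 was higher with siAHR-5 by 0.36 (SE 0.0242, adjusted p = 0.000325).

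The ADP/ATP and phosphate carriers were lower with both siRNAs by small amounts that did not reach the fold cutoff. Slc25a3 measured 16.75, 16.77 and 16.80 in SedMYC siCtrl, 16.68, 16.68 and 16.69 with siAHR-2 and 16.54, 16.54 and 16.51 with siAHR-5, with no overlap. Its log2FC was -0.09 (SE 0.0161, limma adjusted p = 0.0132) and -0.24 (SE 0.0200, adjusted p = 0.000722). Slc25a4 had -0.21 (adjusted p = 0.00207) and -0.33 (adjusted p = 0.00092), and Slc25a5 had -0.21 (adjusted p = 0.00828) and -0.32 (adjusted p = 0.000657). For these 3 genes, all 9 values with each siRNA lay below the SedMYC siCtrl values of the same gene, where the groups of 43.3% of all genes with siAHR-2 and 50.5% with siAHR-5 did not overlap. The log2 of the summed fibroblast markers was also lower, at 20.23 to 20.25 in SedMYC siCtrl, 19.99 to 20.03 with siAHR-2 and 19.95 to 19.97 with siAHR-5, and its part in these values was not tested. Slc25a44 was on the other side, at 12.87, 12.83 and 12.82 in SedMYC siCtrl, 13.09, 13.06 and 13.08 with siAHR-2 and 13.13, 13.17 and 13.20 with siAHR-5, with log2FC of 0.24 (adjusted p = 0.00128) and 0.33 (adjusted p = 0.000739).

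**Figure D5:**
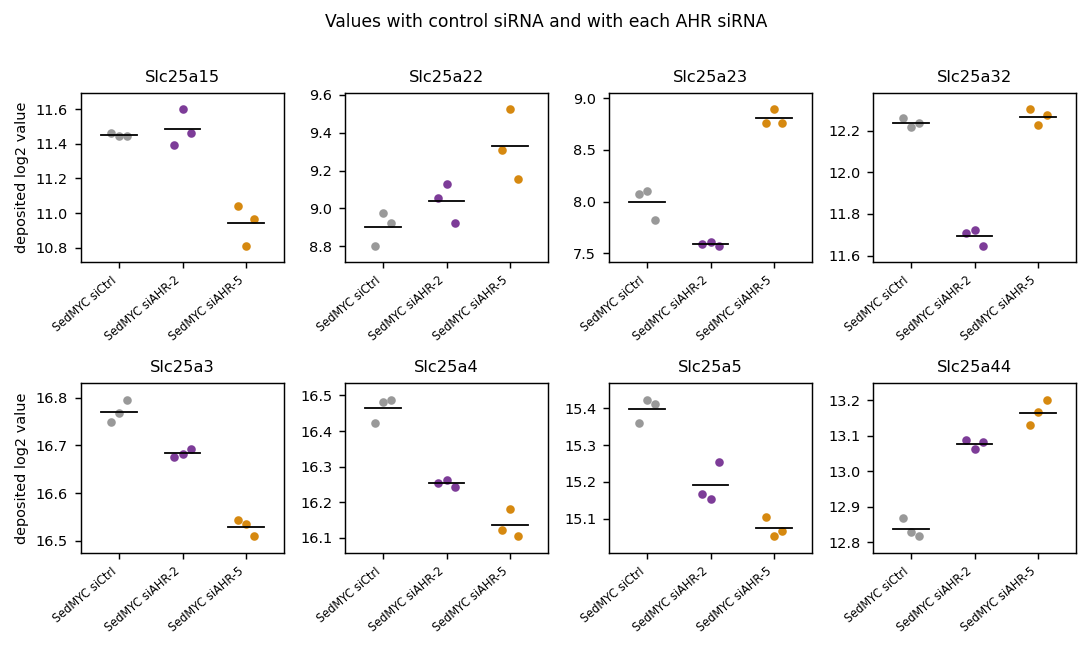
Deposited log2 value of each library for 8 members in SedMYC siCtrl, SedMYC siAHR-2 and SedMYC siAHR-5, with 3 points and a mean line per group; the 8 were chosen with their values known. Slc25a23 is lowest with siAHR-2 and highest with siAHR-5, and Slc25a3, Slc25a4 and Slc25a5 step down from control to siAHR-2 to siAHR-5.

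Members that had passed with MYC in both sets showed these values under AHR knockdown, against the same SedMYC siCtrl libraries. Slc25a27 was at 9.55 to 9.82 in the control and at 10.00 to 10.13 and 10.00 to 10.12 with the siRNAs, a log2FC of 0.35 with each (adjusted p = 0.0314 and 0.0228). Slc25a38 was at 11.29 to 11.41, 11.49 to 11.58 and 11.24 to 11.39, overlapping the control with siAHR-5. Slc25a25 was at 11.02 to 11.09 in the control, 11.22 to 11.26 with siAHR-2 and 11.30 to 11.44 with siAHR-5, a log2FC of 0.19 (adjusted p = 0.00671) and 0.33 (adjusted p = 0.00338). None of these values passed the cutoffs.

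Over all 4 comparisons with a control, 11 of 38 members passed at least once and 27 did not, where 37.1% of all genes passed at least once. Slc25a23 passed in 3. Slc25a25, Slc25a27 and Slc25a38 were among those that passed in 2, and Slc25a17, Slc25a26, Slc25a29, Slc25a32, Slc25a33 and Slc25a42 passed in 1. Within groups the libraries were close, with a median SD of the members between 0.0414 and 0.0601 depending on the group.

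Family genes with other symbols and other mitochondrial transport genes were examined beside them. Of 4 family genes with other names, 2 passed in each MYC comparison, where 26.8% and 25.5% of all genes did. Ucp2, an uncoupling protein, measured 6.54, 6.59 and 6.87 in Sed siCtrl and 11.02, 10.81 and 10.83 in SedMYC, and 8.31, 8.35 and 8.27 in Sed and 11.69, 11.71 and 11.66 in SedMYC siCtrl. It rose with a log2FC of 4.22 (SE 0.0917, limma adjusted p = 9.43e-12) and 3.38 (SE 0.0455, adjusted p = 1.74e-07), more than any of the 38 members in either set. Mtch1, an outer membrane relative of the carriers, fell with a log2FC of -0.77 and -1.12 (adjusted p = 7.04e-09 and 1e-05).

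Of 25 other mitochondrial membrane transport genes, 8 (32%) passed in each MYC comparison, 6 higher and 2 lower, beside 26.8% and 25.5% of all genes, and 0 with either siRNA, beside 0.47% and 2.32%. The 6 that rose were the same in both sets. They include Mcu, the pore of the calcium uniporter (0.99 and 0.85), its regulator Micu3 (0.85 and 0.78), the sodium-calcium exchanger Slc8b1 (0.92 and 1.04), the serine carrier Sfxn1 (0.75 and 0.84) and the ABC transporter Abcb6 (0.73 and 0.73). Abcb10, an ABC transporter linked to haem synthesis, fell in both (-0.86 and -1.17), while Letm1 fell in the 6-library set (-0.71) and Sfxn3, named after its values were seen, in the 12-library set (-1.02). The median log2FC of the 25 was 0.075 and 0.17.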

How the data were processed

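RNA-seq libraries were made from poly-A RNA in 18 samples. Per the submitters' processing notes and the paper's methods, the authors used HISAT2 2.1.0 for alignment to rn6 and DESeq2 for normalization, after dropping every gene below 10 reads in total. Which counter and which annotation served is not given in the sources used here. The authors deposited log2 values of 13188 genes, labelled log CPM, but off the log scale the library totals are 86.3 to 161 times those of CPM, so the transformation, the depth and the precision it gives are unknown, and whether fold changes of low genes are understated was not tested. Libraries of a group differed by an SD of 0.0706 to 0.174 over genes, so none was a copy. Every column matched a sample. Groups came from the labels.

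Differences were tested with limma 3.58.1 in R 4.3.3 (lmFit, eBayes with a mean-variance trend, 2-sided), only the libraries compared entering a fit, with Benjamini-Hochberg adjustment over all genes and the paper's cutoffs of fold and adjusted p. The fits were tested on simulated data. Alternatives were an FDR below 0.05, 1 fit of all libraries, no trend, quantile normalization, median centring, a minimum mean of 5, a pseudocount of 1, the replicate block and leaving out each library. Members and lists were chosen with earlier results of these data known. Values by library were given for members past the cutoffs and the rest by counts and ranges, with up to 6 named for their role and others said to be named after their values were seen. RefSeq tables of GRCr8 gave promoters and gene order. Plots were made in Python 3.11.15 (matplotlib 3.10.9). A member and a gene of the transport list are counted but not reported here by name.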

Additional observations from a re-analysis of the deposited data

Results flagged for a closer look

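The effect of MYC differed between the sets past the cutoffs for 4 members, by a test of the difference itself (12-library set minus 6-library set, limma). The differences on the log2 scale were -1.82 for Slc25a23, -1.05 for Slc25a42, -0.96 for Slc25a29 and 0.72 for Slc25a16. Slc25a23 was higher in all 6 MYC libraries than in the libraries without MYC of the same set, and the other 3 had opposite signs in the sets. The direction of the transfection change and the scale both differ between the sets, so their parts in these differences cannot be told apart.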

How the results depend on the processing

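Counts of members past the cutoffs moved most with the cutoff. Under an FDR of 0.05 alone they were 32 (6-library set), 24 (12-library set), 19 (siAHR-2), 21 (siAHR-5), 14 (siAHR-5 minus siAHR-2) and 22 (difference of MYC effects), and over all genes 10051, 8538, 3860, 5169, 5151 and 7235. The median log2FC of members was, under quantile normalization and median centring, 0.21 and 0.089 in the 6-library set, 0.11 and 0.041 in the 12-library set, -0.052 and -0.065 with siAHR-5, and 0.021 and 0.055 for the difference of MYC effects. For that difference it was -0.030 on the deposited values, so its sign turned under both. The median was 0.20 in the 6-library set over genes with a mean of at least 5. The median over all genes moved as well. On the deposited values, under quantile normalization and after median centring it was -0.0038, 0.011 and -0.046 in the 6-library set. In the 12-library set it was -0.00014, 0.021 and 0.043, and with siAHR-5 0.013, -0.0024 and -0.046. For the difference of MYC effects it was -0.015, 0.0014 and 0.070. Median centring shifts every gene of a comparison by the same amount. The cause of the other moves was not tested. The value of Slc25a3 in the 12-library set reversed to 0.093 under quantile normalization. Over all genes, siAHR-5 gave 194 higher and 112 lower calls, 127 and 126 under quantile normalization and 140 and 165 after median centring. Quantile normalization turned the balance of all genes in both MYC comparisons, from 1653 higher and 1884 lower to 1799 and 1684 in the 6-library set and from 1425 and 1936 to 1796 and 1660 in the 12-library set, and median centring that of the difference of MYC effects, from 896 and 1275 to 1148 and 1036.

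With 1 library left out, member counts were 7 to 8 in the 6-library set (7 without SedMYC replicate 1, which takes out Slc25a17), 8 to 9 in the 12-library set (9 without SedMYC siCtrl replicate 3, which adds Slc25a35), 0 with siAHR-2, 1 with siAHR-5, 4 to 6 for the difference of MYC effects and 1 to 2 for siAHR-5 minus siAHR-2. The last was 2 without SedMYC siAHR-2 replicate 2 or SedMYC siAHR-5 replicate 2, where Slc25a32 joins, and without SedMYC siAHR-5 replicate 1, where Slc25a15 joins.

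Same-numbered libraries did not deviate together in every pair of any comparison (correlations from -0.26 to 0.24), and the main fits did not pair them. With 3 libraries per group these correlations cannot exclude pairing. With siAHR-5, and in siAHR-5 minus siAHR-2, 2 of 3 libraries correlated best with their own number. The replicate block left the member counts at 8, 8, 0, 1, 1 and 4, and over all genes it left 0 calls in place of 62 with siAHR-2. The depth of the libraries is unknown and limits low members such as Slc25a18, Slc25a34 and Slc25a41 by an amount that cannot be given.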
